A study of Mus musculus with 33 samples.

Results

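Binding of p53 to chromatin was set side by side for doxorubicin and (-)-Nutlin, each given to cells of the same 3 lymphomas. The comparison rests on 6 p53 peak lists of the 26 in the series, 3 from cells given 1 µM doxorubicin for 3 h and 3 from cells given 5 µM (-)-Nutlin for 3 h, chosen by sample title and paired by tumour number (tumours 5, 6 and 7). All 6 came from Eµ-myc mice of strain C57/Bl6, which express Myc in the B lineage. All carried an Arf deletion on both alleles (Arf-/-) and intact Trp53 (Trp53+/+). Ages are not given. Lymph nodes were dispersed with no later selection of cells, so other lymph node cells could be present. The labelled cell type, B cells, could not be checked, because peak lists hold no expression.

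p53 is a transcription factor that binds DNA as a tetramer and is kept low by the ubiquitin ligase Mdm2. Arf restrains Mdm2, and its loss is a common way in which Myc-driven lymphomas escape p53. Doxorubicin poisons topoisomerase II and intercalates into DNA, and the resulting breaks signal through kinases that modify p53 and Mdm2. (-)-Nutlin fills the pocket of Mdm2 that holds p53 and so frees p53 without breaking DNA. The question here was whether both routes put p53 on the same sites. The doses differ, and each drug was given at 1 dose, so that the lists compare the drugs as given.

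Other lists of the series served as a reference outside the comparison. In the same 3 tumours, 12 control lists came from cells left untreated or given water, DMSO or the inactive mirror form (+)-Nutlin (5 µM). A further 4 lists came from tumours 1 to 4, whose genotype is Trp53(KI/delta), a knock-in (KI) and a deleted allele, after restoration of p53 with 100 nM OHT (4-hydroxytamoxifen) for 2 h. The last 4 came from the same KI tumours given ethanol (EtOH). Each list gives chromosome, start and end of each peak (mouse build mm9), without height or score, and read depth is unknown. A region below is the union of peaks of the 6 lists that share at least 1 bp.

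One library stood apart in the overlap of its peaks with the other lists, and results that rest on it are given with and without it. The doxorubicin list of tumour 6 overlapped the other 5 lists with a Jaccard index, the shared part of the covered bases, of 0.27 to 0.45. The 10 pairs among the other 5 lists ranged from 0.43 to 0.62. Its lowest value, 0.27, was with the (-)-Nutlin list of its own tumour.

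The number of p53 sites called differed between the drugs in no common direction. Doxorubicin lists held 11346, 8250 and 9523 peaks in tumours 5, 6 and 7, and (-)-Nutlin lists 10503, 10674 and 5617. The groups overlapped, the (-)-Nutlin list of tumour 7 was the shortest, and the ratio of doxorubicin to (-)-Nutlin ran from 0.77 in tumour 6 to 1.70 in tumour 7. Means were 9706 ± 1556 (SD, n = 3) and 8931 ± 2872 (SD, n = 3) peaks. On the geometric mean the doxorubicin lists were 1.12 times as long, and exact permutation gave p = 0.8 (two-sided, as all tests here; Benjamini-Hochberg p = 0.8 over the 6 comparisons of whole lists). The paired 95% interval, 0.42 to 2.99, allows a sizeable difference either way.

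Covered length separated the groups. It was 6.53, 5.28 and 6.14 Mb with doxorubicin and 5.25, 5.04 and 3.35 Mb with (-)-Nutlin. Every doxorubicin list covered more than every (-)-Nutlin list, although the lowest doxorubicin value, 5.28 Mb, barely exceeded the highest (-)-Nutlin value, 5.25 Mb. The exact permutation p of 0.1 is the smallest that 3 against 3 lists can give, so no whole-list comparison here could pass 0.05.

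**Figure D1:**
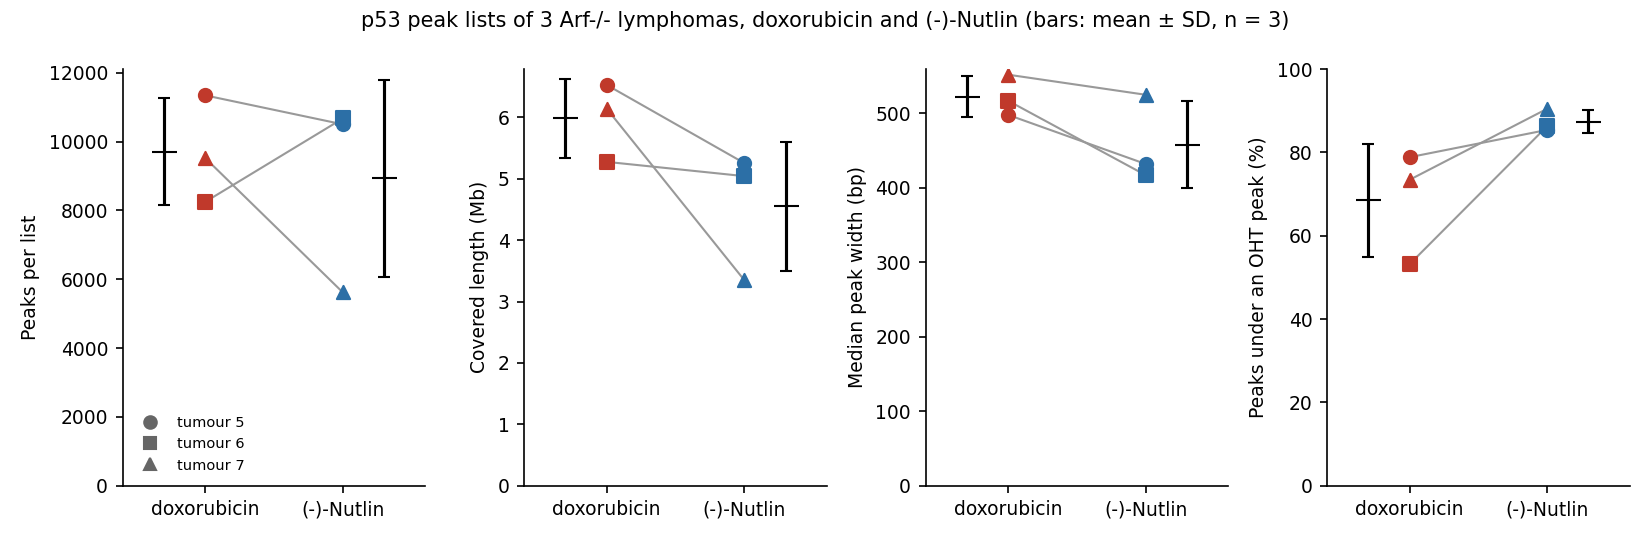
Peaks per list, covered length (Mb), median peak width (bp) and percent of peaks under an OHT peak for the 6 lists, with symbols for tumours 5, 6 and 7, lines joining lists of one tumour and bars for mean ± SD (n = 3). Covered length and the percent under OHT peaks do not overlap between the drugs, while peak numbers do.

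A smaller share of doxorubicin peaks than of (-)-Nutlin peaks coincided with sites of restored p53 in every list. Of doxorubicin peaks, 78.8%, 53.1% and 73.4% in tumours 5, 6 and 7 lay under a peak of at least 1 OHT list. Of (-)-Nutlin peaks it was 85.4%, 86.3% and 90.5%. All 3 (-)-Nutlin lists exceeded all 3 doxorubicin lists, and the doxorubicin list of tumour 6 was lowest by far. The 12 control lists of these tumours had 83.1% to 95.3% of their peaks under an OHT peak. That range holds all (-)-Nutlin lists and no doxorubicin list. The control lists are no like reference, since they held 707 to 2696 peaks, against 5617 to 11346 in the 6 lists. Whether list length or peak width bears on these shares was not tested.

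Means were 68.5% ± 13.5 (SD, n = 3) with doxorubicin and 87.4% ± 2.7 (SD, n = 3) with (-)-Nutlin, a difference of -18.9 percentage points. The exact permutation p was 0.1 (Benjamini-Hochberg p = 0.6), the smallest possible before adjustment, and the paired 95% interval ran from -52.2 to 14.3 points. Without the doxorubicin list of tumour 6 the difference was -11.3 points, again without overlap (exact permutation p = 0.1).

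The gap depended on the KI tumour taken as reference. Under OHT peaks of tumour 4 alone lay 63.8%, 36.5% and 57.6% of doxorubicin peaks and 71.2%, 72.7% and 73.3% of (-)-Nutlin peaks. Tumour 3 gave the same order, 67.9%, 43.0% and 63.0% against 74.2%, 74.2% and 80.7%, again without overlap. Under OHT peaks of tumour 1 the groups overlapped, with 31.5%, 33.6% and 35.7% against 33.5%, 32.1% and 48.6%. Tumours 3 and 4 had the longer OHT lists, 10084 and 9738 peaks, and tumours 1 and 2 had 4102 and 3597. Against tumours 1 and 2 together the difference shrank to -6.7 points (exact permutation p = 0.3), and against tumours 3 and 4 together it was -19.9 points (exact permutation p = 0.1).

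Sites of one drug were mostly found with the other, but the share depended on the tumour. In tumour 5, 80.4% of doxorubicin peaks lay under a (-)-Nutlin peak of the same tumour and 87.3% the other way. In tumour 7 it was 53.5% and 91.0%, so that the shorter (-)-Nutlin list lay almost within the doxorubicin list. In tumour 6 it was 54.3% and 42.1%, and neither list contained the other. Means were 62.7% ± 15.3 (SD, n = 3) and 73.4% ± 27.2 (SD, n = 3). The difference was smaller than the spread between tumours (exact permutation p = 0.8, Benjamini-Hochberg p = 0.8), and its interval, -72.9 to 51.5 points, was wide. The number of shared peaks was nearly the same from either side (9122 and 9164, 4479 and 4493, 5099 and 5111), so that the difference mainly restates list length. With lists of equal length it was -0.24 points, which follows from such counts by arithmetic and is no separate check.

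Peaks missing from the other drug's list of the same tumour were often present in another tumour. Of the 4424 doxorubicin peaks of tumour 7 without a (-)-Nutlin peak there, 60.1% lay under a (-)-Nutlin peak of tumour 5 or 6. Of the 506 unshared (-)-Nutlin peaks of tumour 7, 83.8% lay under a doxorubicin peak of another tumour. Of the 6181 in tumour 6 it was 74.0%. The 3771 unshared doxorubicin peaks of tumour 6 were different, since only 16.8% of them lay under a (-)-Nutlin peak of another tumour and 11.3% under an OHT peak. In tumour 5 unshared peaks of both drugs had low values, 27.2% for 2224 doxorubicin peaks and 28.5% for 1339 (-)-Nutlin peaks, although 43.2% and 71.0% of them lay under OHT peaks.

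In 5 of the 6 lists narrower peaks were less shared. With each list split into 10 equal parts from widest to narrowest, doxorubicin peaks of tumour 5 went from 99.4% shared in the first to 50.9% in the last, and those of tumour 7 from 96.7% to 24.7%. (-)-Nutlin peaks went from 99.6% to 58.6% in tumour 5, from 82.7% to 15.7% in tumour 6 and from 98.9% to 73.8% in tumour 7. The doxorubicin list of tumour 6 had another shape. There the share was 94.7% in the first part, fell to 28.2% among peaks of 517 to 594 bp, and rose to 65.6% among the narrowest, of 314 to 334 bp. The share under OHT peaks followed the same course in that list, with 83.4%, 32.6% and 65.9%.

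**Figure D2:**
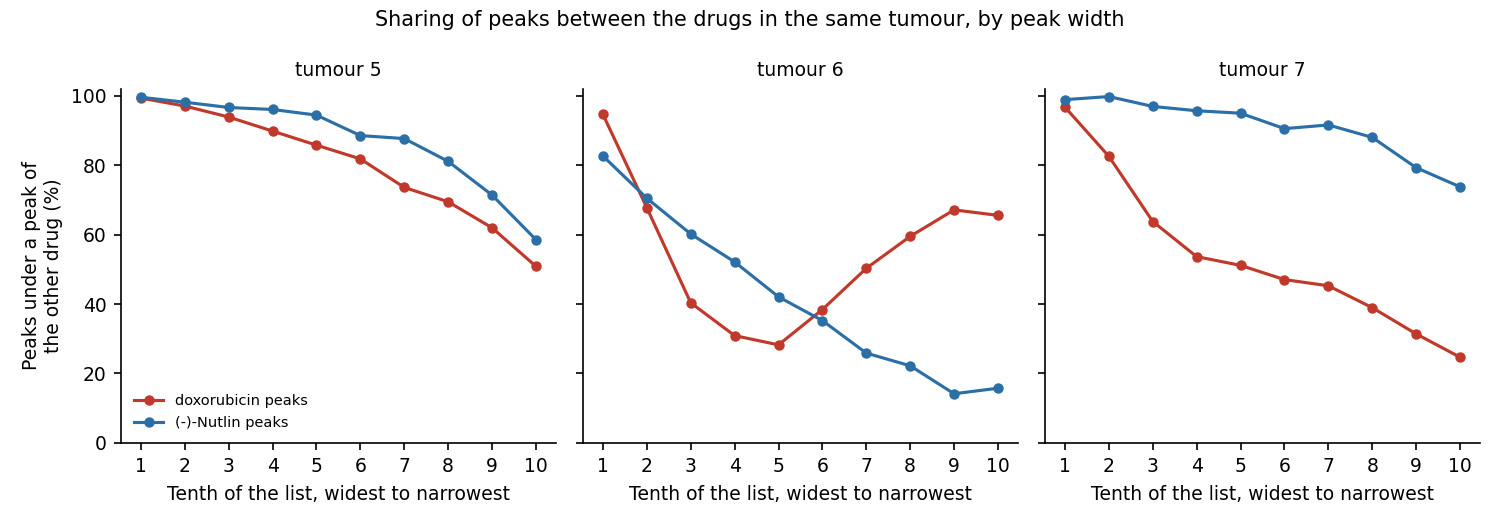
Percent of peaks under a peak of the other drug in the same tumour (vertical axis) for 10 equal parts of each list from widest to narrowest (horizontal axis), 1 panel for each tumour, red for doxorubicin peaks and blue for (-)-Nutlin peaks. The red line of tumour 6 falls to 28.2% in the fifth part and rises again, while the other lines end far below their start.

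Merged over the 6 lists, the peaks gave 17070 regions. A peak of both drugs was present in 10406 regions (61.0%), of doxorubicin alone in 4558 (26.7%) and of (-)-Nutlin alone in 2106 (12.3%). All 6 lists had a peak in 3206 regions (18.8% of all), and 4718 regions (27.6%) had a peak in 1 list only. Of these single-list regions 1845 belonged to the doxorubicin list of tumour 6 and 1118 to the (-)-Nutlin list of tumour 6.

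Regions of doxorubicin alone and of (-)-Nutlin alone differed in what else was called there. Of the regions in (-)-Nutlin lists alone, 57.3% had a peak in an OHT list, against 16.6% for doxorubicin alone and 85.9% for regions of both drugs. For regions of doxorubicin alone the share was nearly flat over the number of lists, at 16.4% for 1 list, 16.4% for 2 and 18.4% for 3. For (-)-Nutlin alone it was 49.6% for 1 list, 81.5% for 2 and 94.4% for 3. A control list had a peak in 2.81% of regions of doxorubicin alone and 1.71% of those of (-)-Nutlin alone, against 23.5% of all regions. This share was higher with more lists for both drugs, at 0.451%, 6.83% and 10.1% for 1, 2 and 3 doxorubicin lists and 0.681%, 4.41% and 13.9% for (-)-Nutlin lists.

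**Figure D3:**
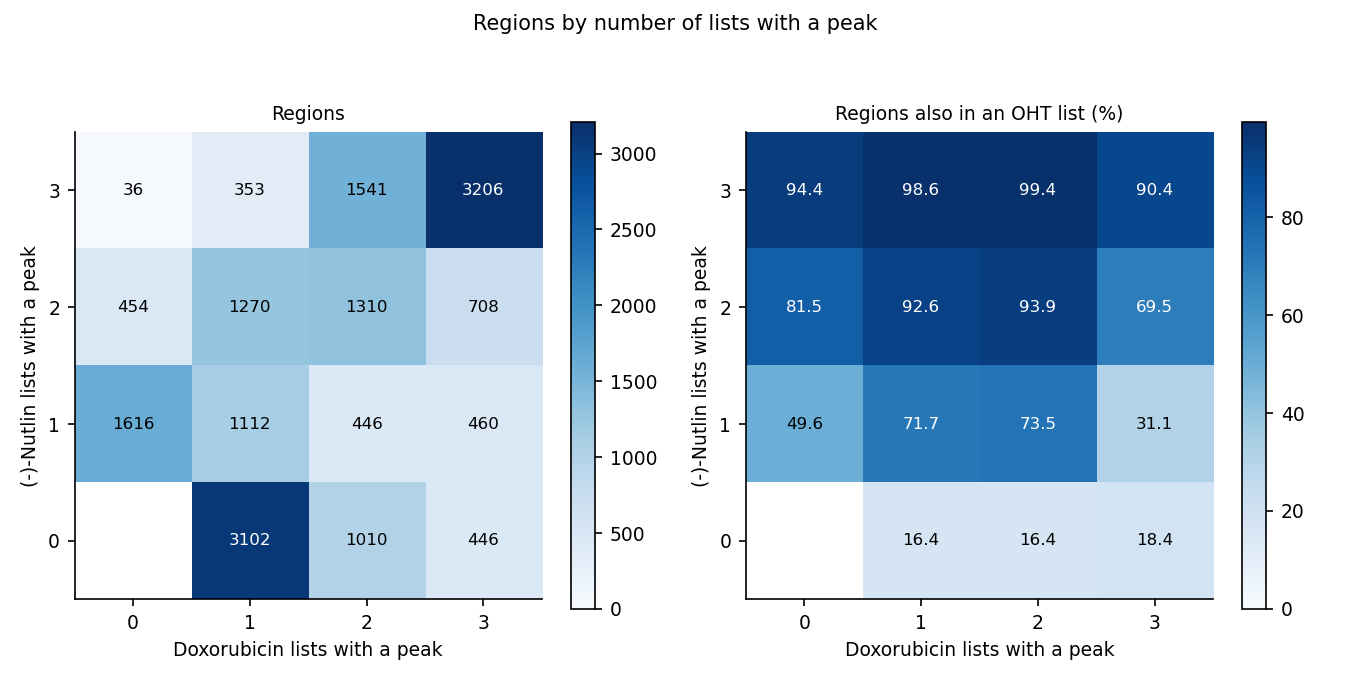
Regions sorted by the number of doxorubicin lists (horizontal axis) and (-)-Nutlin lists (vertical axis) with a peak, as number of regions (left) and as percent with a peak in any OHT list (right). The bottom row, doxorubicin alone, stays at 16.4% to 18.4%, and the left column, (-)-Nutlin alone, climbs to 94.4%.

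The doxorubicin list of tumour 6 set much of this pattern. Its 1845 private regions had a peak in an OHT list in 5.09% of cases. A further 736 regions were called in the doxorubicin lists of tumours 6 and 7 and in no other of the 6, with 7.88% in an OHT list. In the opposite direction, 1437 regions were called in every list except this one, and 99.4% of these had an OHT peak, 97.9% in tumour 4 and 29.7% in tumour 1. Private regions of the doxorubicin lists of tumours 5 (877) and 7 (380) had an OHT peak in 33.6% and 31.6% of cases, and the 188 regions called in both of these lists and no other of the 6 had one in 45.7%. The low OHT share of regions of doxorubicin alone thus rests largely on regions with a peak in the list of tumour 6. Private regions of the (-)-Nutlin lists of tumours 5 (478) and 6 (1118) had an OHT peak in 52.5% and 48.5%.

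Regions called in all 3 lists of one drug and in none of the other were few. Doxorubicin had 446 (2.61% of regions) and (-)-Nutlin 36 (0.211%). Only the largest pattern of 3 lists that crossed the drugs held more than 446. It was doxorubicin of tumour 5 with (-)-Nutlin of tumours 5 and 6 and no other list, in 1062 regions (6.22%). The next largest crossed pattern of 3 lists held 175. The imbalance between 446 and 36 depended on the setting. It was present without tumour 5 (1570 and 350), without tumour 6 (838 and 55), without the doxorubicin list of tumour 6 alone (636 and 47) and when peaks narrower than the overall median of 485 bp were dropped (447 and 22). It was absent without tumour 7 (548 and 637), and with each list reduced to its 5617 widest peaks, as many as the shortest holds (225 and 219), a step that also sets a different smallest width in each list. With 1 list of each group allowed to differ it was slight (2362 and 2113). Fisher's exact test per region cannot go below p = 0.1 with 3 against 3 lists, so 0 regions had an unadjusted p under 0.05.

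The leading doxorubicin-only regions, ranked by width within the lists, were mostly widest in tumour 6. The first, on chromosome 4 from 106619865 to 106621216, had peaks of 756, 1352 and 856 bp in tumours 5, 6 and 7 and no peak in the (-)-Nutlin lists or the 20 lists of other groups. The second, on chromosome 8 from 82443884 to 82445105, had peaks of 761, 1222 and 732 bp and was likewise called nowhere else. The region on chromosome 4 from 124794469 to 124795607, with 618, 1087 and 1010 bp, also appeared in 2 OHT lists. At chromosome 10 from 110348343 to 110349140 the peaks were of nearly equal width, 697, 691 and 777 bp, and 1 OHT list had a peak. Of the 10 regions chosen by this rank, 5 had a peak in none of the 20 lists of other groups, 4 in an OHT list and 1 in a control list. Of all 446 such regions 18.4% had a peak in an OHT list.

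All 10 leading (-)-Nutlin-only regions had a peak in an OHT list, close to the 94.4% of all 36 such regions. The first, on chromosome 4 from 118109758 to 118110497, had peaks of 737, 695 and 635 bp in tumours 5, 6 and 7 and a peak in 2 OHT lists. The region on chromosome 5 from 28397452 to 28398076 had peaks of 469, 421 and 625 bp, and 3 OHT lists and 1 control list had a peak there. On chromosome 7 from 4965859 to 4967116 the widths were uneven, 786, 301 and 1225 bp, and 1 OHT list had a peak. These regions were shorter than the doxorubicin-only ones, 522 to 1258 bp against 798 to 1352 bp for the 10 leading regions of each kind. The ranking by width itself influences these lengths. It took 10 of 446 doxorubicin-only regions but 10 of only 36 (-)-Nutlin-only regions, so the 2 selections are unlike.

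At the regions called in all 6 lists, peaks tended to be wider with doxorubicin. The median peak there was 725, 611 and 756 bp with doxorubicin in tumours 5, 6 and 7 and 609, 551 and 589 bp with (-)-Nutlin. The doxorubicin peak was the wider in 81.6%, 54.5% and 81.4% of the 3206 regions, and the median ratio was 1.17, 1.10 and 1.23. Over all peaks of a list the median width was 498, 517 and 552 bp against 432, 417 and 525 bp, which overlapped between the drugs (ratio 1.15, exact permutation p = 0.3, Benjamini-Hochberg p = 0.6, paired 95% interval 0.93 to 1.41). The smallest peak of a list also varied, from 314, 314 and 375 bp with doxorubicin to 278, 282 and 391 bp with (-)-Nutlin. With each median divided by the smallest peak of its list, the log2 ratio of 0.20 became 0.11.

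Region by region, limma called 32 of the 3206 regions (0.998%) wider with doxorubicin at an adjusted p under 0.05, and 0 (0%) wider with (-)-Nutlin, with 844 and 12 at an unadjusted p under 0.05. With tumour as a term the counts were 388 (12.1%) and 6 (0.187%). After subtraction of each list's median width at these regions the counts were 3 and 0, and positive ratios made up 48.6% in place of 72.5%, a share that this subtraction itself brings near equality. Without tumour 6, or without its doxorubicin list alone, the regions called in all remaining lists were other sets, of 4893 and 4645 regions. There limma called 0 regions in either direction. The median log2 ratio, 0.23 and 0.26, was no smaller than the 0.23 with all lists. Positive ratios made up 82.6% and 85.1% against 72.5%, but over these other sets of regions. Without tumour 5 limma called 289 and 4 of 3241 regions. Of the 3206 regions with all lists, the groups did not overlap in width in 1080 (33.7%) with doxorubicin wider and in 33 (1.03%) with (-)-Nutlin wider.

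The ratio of widths had a single hump in tumours 5 and 7 and a double hump in tumour 6. In tumour 6 the fullest bins of 0.1 log2 units began at -0.3, with 214 regions, and at 0.7, with 168, and the emptiest bin between them, beginning at 0.1, held 89. Divided there, a limit set after the values were seen, 1644 regions lay above and 1562 below. Above it the doxorubicin peak of tumour 6 had a median of 1066.5 bp and the (-)-Nutlin peak 569.5 bp, and below it 387 and 540 bp. The division used both of these widths, so the medians only describe it.

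The same division carried over to the other tumours in smaller measure. In tumour 7 the median ratio was 1.37 above and 1.07 below, and in tumour 5 it was 1.18 and 1.14. Doxorubicin was wider in 96.4% of the upper regions and 65.6% of the lower ones in tumour 7, and in 88.7% and 74.1% in tumour 5.

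**Figure D4:**
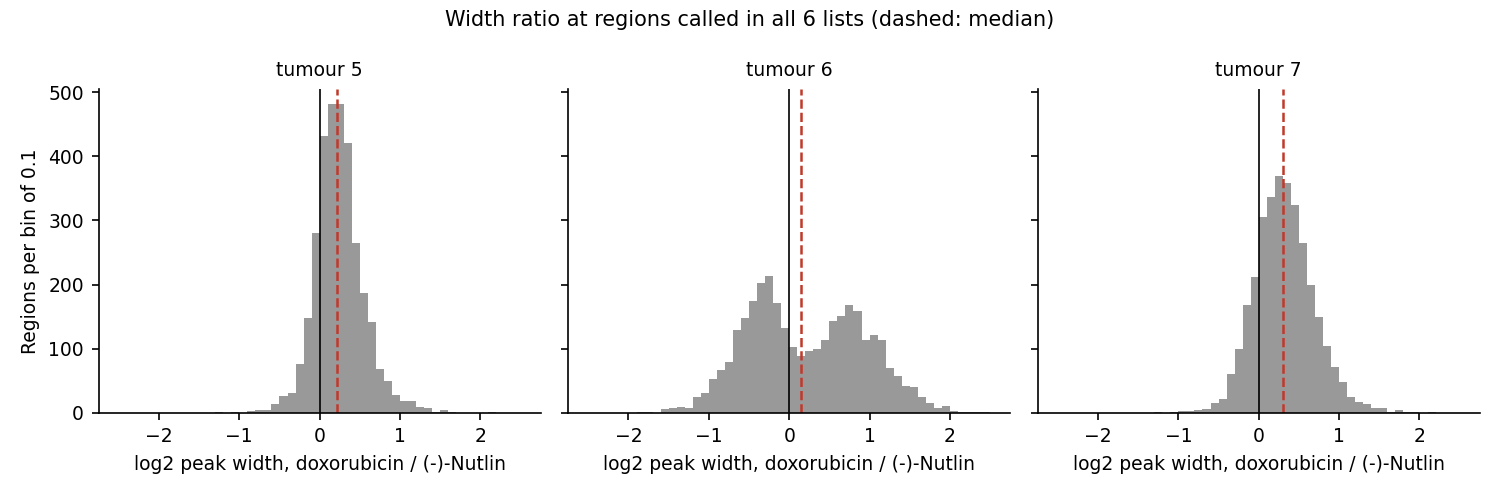
Number of regions in bins of 0.1 (vertical axis) by log2 ratio of peak width, doxorubicin over (-)-Nutlin (horizontal axis), at the 3206 regions called in all 6 lists, 1 panel for each tumour, with the median as a dashed line and equality as a solid line. Tumours 5 and 7 show 1 hump right of equality, and tumour 6 shows 2, with 1562 regions below the gap and 1644 above; 1 ratio beyond the axis is drawn in the last bin.

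The 2 kinds of region had different calls in libraries that played no part in the ratio. Above the limit 32.5% had a peak in the OHT list of tumour 4 and 56.9% in that of tumour 3, and below it 99.1% and 99.2%. The OHT list of tumour 2 differed in the same direction by less, with 44.0% above and 64.1% below. Only the OHT list of tumour 1 went the other way, with 74.9% above and 57.4% below. An EtOH list had a peak in 5.17% above and 27.8% below, while control lists of Arf-/- tumours more often had one above, 84.9% against 68.8%. These shares describe the regions, and wide regions can meet a peak of another list more easily than narrow ones. The median peak was wider above the limit than below it in all 6 lists. The part of width in these shares was not tested.

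With tumour 6 left out of the ratio, the OHT lists of tumours 3 and 4 and the EtOH lists kept this direction, and the control lists changed little. The choice of regions still depended on tumour 6, since each of the 3206 had a peak in both of its lists. With the 3206 regions put in order of the mean ratio in tumours 5 and 7 and split into 10 equal parts, an OHT peak of tumour 4 was present in 46.4% of the first, most doxorubicin-wide part and in 97.5% of the last. For tumour 3 it was 62.0% and 98.8%, and for EtOH lists 7.17% and 29.4%. For tumour 2 it was 48.9% and 56.6%, with a highest value of 62.8% in the ninth part. The OHT list of tumour 1 had no steady course, with 64.8% in the first part, a highest value of 74.1% in the seventh and 48.4% in the last. Control lists had a peak in 74.4% to 82.6% of regions in the first 9 parts and 67.8% in the last. With tumour 6 included in the ratio the span was wider, from 18.4% to 99.7% for tumour 4 and from 1.25% to 32.2% for EtOH lists.

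**Figure D5:**
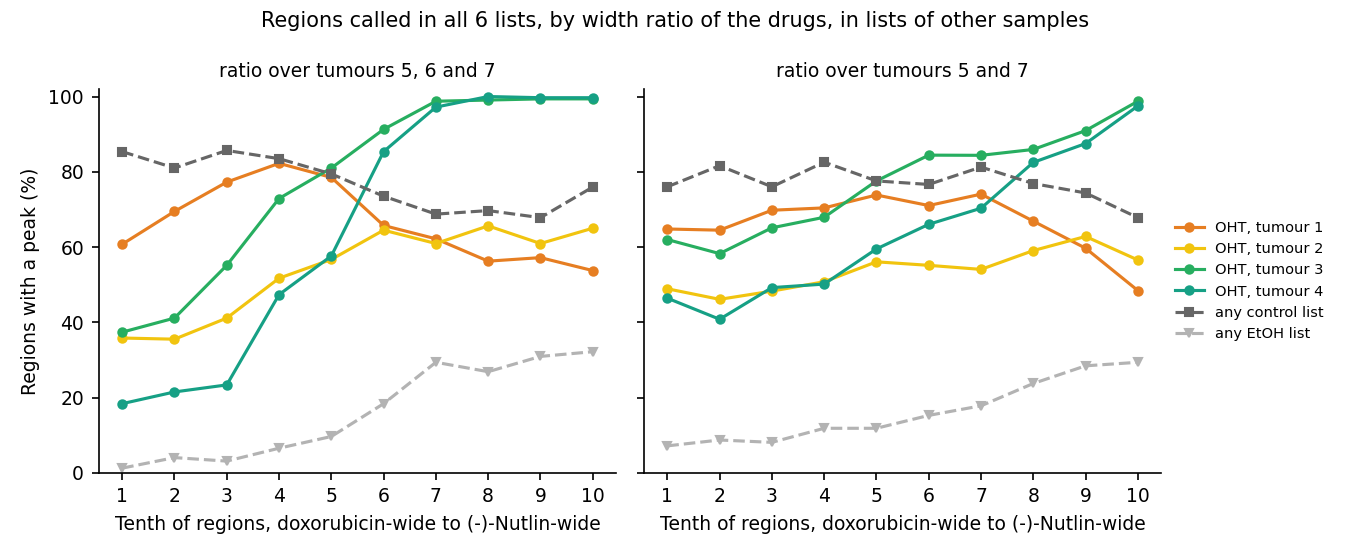
Percent of regions with a peak in each OHT list, in any control list and in any EtOH list (vertical axis) for 10 equal parts of the 3206 regions ordered by width ratio from doxorubicin-wide to (-)-Nutlin-wide (horizontal axis), with the ratio averaged over tumours 5, 6 and 7 (left) or 5 and 7 (right). The lines of OHT tumours 3 and 4 rise to 97.5% or more in both panels, and that of tumour 1 ends at 53.8% and 48.4%.

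The 5 regions with the largest ratio toward doxorubicin had peaks 2.87 to 3.17 times as wide as with (-)-Nutlin. On chromosome 13 from 30805898 to 30807601 doxorubicin peaks were 1080, 1679 and 1554 bp wide in tumours 5, 6 and 7 and (-)-Nutlin peaks 585, 295 and 515 bp. No control list and 3 OHT lists had a peak there. The groups did not overlap, and the log2 ratio was 1.66 with a standard error of 0.28 (limma adjusted p = 0.0141, and 0.058 after subtraction of list medians). On chromosome 2 from 35590696 to 35592470 the widths were 983, 1775 and 1471 bp against 408, 475 and 435 bp. This region was called in 11 of the 12 control lists and in 1 OHT list (limma adjusted p = 0.00815, and 0.0555 after subtraction of list medians).

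The other 3 held their calls under both scalings. On chromosome 4 from 140141148 to 140142896 the widths were 1269, 1610 and 1673 bp against 443, 437 and 594 bp, with a limma adjusted p of 0.00694, and all 4 OHT lists had a peak. The region on chromosome 6 from 7676590 to 7678121, with 1067, 1224 and 1510 bp against 428, 316 and 533 bp, was called in 6 control lists and no OHT list (limma adjusted p = 0.0091). On chromosome 11 from 68829407 to 68830845 the widths were 1001, 1368 and 1248 bp against 422, 394 and 435 bp, with peaks in 6 control and 3 OHT lists (limma adjusted p = 0.00694).

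Regions with the reverse ratio were less uniform, and 0 of the 5 passed in the fit without a tumour term. On chromosome 17 from 56395319 to 56396409 (-)-Nutlin peaks were 463, 1062 and 877 bp wide and doxorubicin peaks 377, 314 and 463 bp, with a log2 ratio of -0.99 and a standard error of 0.29 (limma adjusted p = 0.0665, and 0.00375 with tumour as a term). On chromosome 17 from 32457527 to 32458646 the widths were 949, 896 and 1051 bp against 844, 377 and 553 bp (limma adjusted p = 0.0938, and 0.0251 with tumour as a term). In each of the 5 regions the doxorubicin peak of tumour 6 was the narrowest of the 6 peaks, at 314 to 389 bp. All 5 regions had a peak in 3 or 4 OHT lists.

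Of the regions called in all 6 lists, the 5 with the highest mean rank of width were also called in every OHT and control list. The first, on chromosome 17 from 39979743 to 39985974, had peaks of 4029 to 6232 bp in the 6 lists and a peak in each of the 26 lists, EtOH included. Whether it reflects p53 was not tested, since no region was removed as repeat or high background. The region on chromosome 11 from 6425981 to 6429039 was also called in all 26 lists, with 2638, 3019 and 2952 bp with doxorubicin and 2882, 2096 and 2604 bp with (-)-Nutlin. Regions on chromosome 10 from 61050084 to 61053378 and chromosome 3 from 32261837 to 32265043 were called in every OHT and control list and in no EtOH list. For the former, doxorubicin peaks of 2723, 3138 and 3295 bp were all wider than (-)-Nutlin peaks of 2373, 1940 and 2120 bp, a difference that limma did not call (adjusted p = 0.14).

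Likeness of lists was only slightly greater within a drug than between drugs, by less than the spread among pairs. The mean Jaccard index was 0.526 among (-)-Nutlin lists, 0.447 among doxorubicin lists and 0.425 between drugs. The difference of 0.062 between same-drug and different-drug pairs had an exact permutation p of 0.2 (Benjamini-Hochberg p = 0.6) and was 0.041 without the doxorubicin list of tumour 6. The most alike pair was doxorubicin and (-)-Nutlin in tumour 5, at 0.62. In regions called in all 6 lists, which the merging of overlapping peaks selects for nearness, midpoints lay a median of 34.5 to 54 bp apart in the 15 pairs of lists. By rank of width in these regions, Spearman's rho, over 3206 regions that are not independent replicates, was highest at 0.82 between the lists of tumour 5 and lowest at 0.44 between those of tumour 6. Its mean was 0.72 for same-drug pairs (0.64 to 0.80) and 0.64 for different-drug pairs (0.44 to 0.82). By this measure the doxorubicin list of tumour 6 did not stand apart from the other doxorubicin lists, with 0.67 to tumour 5 and 0.80 to tumour 7.

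Shares of peaks at sites called without activation followed the tumour more than the drug. Peaks under a control peak of the same tumour were 30.4%, 19.7% and 7.74% of doxorubicin lists and 32.7%, 17.7% and 12.9% of (-)-Nutlin lists in tumours 5, 6 and 7. The order of tumours was the same for both drugs, and within a tumour the values differed by at most 5.2 percentage points. Means were 19.3% ± 11.4 (SD, n = 3) and 21.1% ± 10.3 (SD, n = 3). Exact permutation gave p = 0.8 (Benjamini-Hochberg p = 0.8), and the interval of the paired difference was -10.9 to 7.22 points. Both drugs were set against the same joined control lists of a tumour, and these lists differed between tumours. A control list held 1694 to 2696 peaks in tumour 5, 935 to 2180 in tumour 6 and 707 to 892 in tumour 7. Median widths of control peaks were 418 to 514 bp in tumour 5 and 93 to 111 bp in tumours 6 and 7. The part of control peak number and width in the shares was not tested. The reverse view was also alike, with 91.4% to 98.6% of each control list's peaks under a doxorubicin peak of its tumour and 93.5% to 98.6% under a (-)-Nutlin peak.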

How the data were processed

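Binding of p53 was measured by ChIP-seq with the CM5p antibody. BWA 0.6.2, SAMtools and build mm9 are named in the submitters' processing notes. How peaks were called, at which threshold and against which input, is not given in the sources used here. Each library has 1 list, deposited by the authors as start and end positions (bp) with no score, so depth is unknown. Coordinates are 1-based. Gene names, motifs and sequences were not analysed here, because the reference tables were for a build other than mm9.

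The members and lists were chosen with earlier results of these data known. Groups and tumour numbers came from sample titles, and the same number marks the same tumour, which pairs the lists. Deviations of log2 width from the drug means correlated by 0.05, -0.14 and 0.14 in tumours 5, 6 and 7. n counts tumours.

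Shares of peaks count an overlap of at least 1 bp, and their Wilson 95% intervals, for counting error only, were at most ± 1.3 percentage points. Whole-list values were compared by exact permutation over lists, with sign flips inside each tumour as the paired form. Paired 95% intervals assume normal differences. Log2 width of the widest peak per region was fitted with limma 3.58.1 (R 4.3.3) and Benjamini-Hochberg adjustment over 3206 regions. Named regions were the 5 widest called in all lists, the 10 widest of each drug alone and the 5 with the largest width ratio each way, the same direction holding in all tumours (width ranked by mean percentile within the lists). The code was tested on simulated data. Alternatives are listed with their effect in the closing section.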

Additional observations from a re-analysis of the deposited data

Results flagged for a closer look

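Tumour 6 went the other way from tumours 5 and 7 in 3 comparisons, with 1 list per drug in each tumour, and in none of them was the difference between tumours tested. The log2 ratio of peak numbers, doxorubicin to (-)-Nutlin, was -0.37 in tumour 6 and 0.11 and 0.76 in tumours 5 and 7. The share of peaks under a peak of the other drug was 12.2 percentage points higher for doxorubicin in tumour 6, against differences of -6.85 and -37.4 in tumours 5 and 7. The share under a control peak was 2.03 points higher for doxorubicin in tumour 6, against -2.28 and -5.20. The first 2 of these are not separate, since shared peaks were nearly equal in number from both sides (4479 and 4493 in tumour 6) and the shorter list then has the larger share.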

How the results depend on the processing

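With 3 lists against 3, p under 0.05 is out of reach for whole lists, so these results can only keep or change direction. The share of peaks under OHT peaks, median width and the Jaccard difference kept theirs under every alternative run (-25.1 to -6.7 percentage points, 0.11 to 0.26 log2 and 0.028 to 0.096). When a tumour was dropped, the log2 ratio of peak numbers ranged from -0.13 to 0.44, the difference in sharing with the other drug from -22.2 to 2.67 points, and against the own solvent alone the difference under control peaks was 2.03 points. The replicate block, by sign changes within tumours, leaves each whole-list difference as it is, so it could not change a direction. Its exact p for the share under OHT peaks was 0.25, the smallest 3 pairs allow, so it could change no call either. In limma the replicate block let 4 of the 5 named regions wider with (-)-Nutlin pass. Regions of doxorubicin alone, (-)-Nutlin alone and all lists, 446, 36 and 3206, became 225, 219 and 1716 with lists of equal length, while with only peaks of at least 485 bp, the median, they were 447, 22 and 1256. With 1 list of each group allowed to differ, the first 2 were 2362 and 2113. Leaving out 1 tumour gave 548 to 1570, 55 to 637 and 3241 to 4893, and leaving out the doxorubicin list of tumour 6 alone gave 636, 47 and 4645. The limma counts of 32 wider with doxorubicin and 0 wider with (-)-Nutlin became 388 and 6 with the replicate block, 3 and 0 centred, 34 and 8 with the block and centring, 140 and 0 with exactly 1 peak per list, 4 and 0 at an adjusted p under 0.01, 34 and 1 with width divided by the list's smallest peak, 0 to 289 and 0 to 4 without 1 tumour, and 0 and 0 without the doxorubicin list of tumour 6. The cause was not tested. Settings added after seeing the data were that list left out, width divided by the smallest peak, OHT tumours 1 and 2 or 3 and 4, and the block for shared peaks and the Jaccard index. Of 125 recomputed values of named regions 0 reversed, 99 kept their size or side of the threshold, 14 moved, 10 newly passed and 2 no longer passed. Lists without scores or depth cannot separate weak binding from a missed call.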
